A study of Mus musculus with 9 samples.

Results

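The mRNA levels of 10 genes of the BCL2 family were measured in RAW264.7 cells, a mouse monocyte-macrophage leukemia line, after transfection with 3 kinds of siRNA. The genes were chosen by name, and each was found as 1 row of the 28137 Ensembl identifiers in the deposited expression values, with symbols from GENCODE M21. They are the antiapoptotic genes Bcl2, Bcl2l1, Mcl1, Bcl2a1b and Bcl2a1d, the effectors Bax and Bak1, and the BH3-only genes Bid, Bcl2l11 and Pmaip1. All 10 were expressed above the filter on low values (a mean of at least 0.5 FPKM) in each comparison.

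The RNA-seq comprised 9 libraries, 3 treated with NC-siRNA (the control siRNA), 3 with SFRP2-siRNA and 3 with RAB6A-siRNA, here called NC, SFRP2 and RAB6A. SFRP2 is a secreted protein that binds Wnt ligands, and RAB6A is a small GTPase of Golgi transport. All groups, NC included, received 60 nM siRNA by lipofection for 6 h, then complete medium for 12 h, and then 100 ng/ml lipopolysaccharide (LPS) for 24 h, per the labels, so that no untreated or unstimulated cells stand beside them. The library titles end in 6H, and it is not stated which step this refers to. The study's methods for RAW264.7 cells differ from the labels: they give a lower siRNA dose, another lipofection reagent, medium and time after transfection, and interferon-gamma beside LPS. The SFRP2 libraries are titled siRNA-1 to siRNA-3, the names of 3 different siRNAs in the study's supplement, and it is not stated whether each library received a different siRNA, so that the SFRP2 spread may include differences between siRNAs. It is 1 cell line, and it is not stated whether the libraries of a group came from separate cultures, so that the p-values measure the spread between these libraries, which may be technical.

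The BCL2 family controls the mitochondrial route of apoptosis. BAX and BAK1 form pores in the outer mitochondrial membrane that release cytochrome c, the antiapoptotic proteins hold them in check, and the BH3-only proteins activate them or block the antiapoptotic proteins. In macrophages, A1 proteins (the Bcl2a1 genes) and MCL1 are known survival factors that are kept up under inflammatory stimulation, and NOXA, the product of Pmaip1, binds mainly MCL1 and A1.

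Values are FPKM, reads or fragments scaled to exon length and library size, which allow only a rough comparison of levels between genes. This scaling does not remove effects of GC content or of sequence shared between genes. The steps between FPKM values, from which reads were recovered, gave library sizes of 41608378-47149258 reads in NC, 34743304-40562562 in SFRP2 and 32758729-37833883 in RAB6A. Rab6a itself measured 24.3, 27.3 and 25.5 FPKM in NC and 21.2, 20.7 and 20.4 FPKM in RAB6A, a log2 fold change of -0.31 (SE 0.06, limma adjusted p = 0.00240). This change was smaller than the median absolute log2 fold change of all genes tested (0.63), of which 74.1% had an adjusted p under 0.05. Rab6a is therefore only a weak check of the label of the RAB6A group. Sfrp2 had 2-4 reads in each of the 9 libraries, so that its transcript could not check the label of the SFRP2 group. All 8 macrophage markers were present and summed to 4563-5032 FPKM in NC, 4034-4365 in SFRP2 and 3957-4121 in RAB6A. Lyz2, Csf1r, Spi1 and Fcgr1 were lower in RAB6A than in NC, by 0.75 to 2.03 on the log2 scale. The other 4 markers did not pass. Their means in NC and RAB6A were 56.3 and 56.3 FPKM for Adgre1, 1850 and 1682 for Cd68, 23.1 and 24.7 for Itgam, and 1679 and 1943 for Cd14. Markers of T cells, B cells and neutrophils that were listed in the values did not exceed 1.22 FPKM in any library, and the 4 fibroblast and endothelial markers summed to at most 2.67 FPKM. The part of the macrophage markers in the results below was not tested, and in such bulk RNA fewer expressing cells and less RNA per cell cannot be told apart.

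In NC, Bak1 had the highest level of the 10 genes (161 FPKM), followed by Bcl2a1d (143), Bcl2l1 (126) and Mcl1 (122). The libraries of Bak1 and Bcl2a1d overlapped, as did those of Bcl2l1 and Mcl1. Bax (37.7 FPKM), Bid (26.3), Pmaip1 (10.1), Bcl2l11 (5.08), Bcl2a1b (2.41) and Bcl2 (0.575) followed, each without overlap with the next. Among genes with a mean of at least 0.5 FPKM, Bak1 stood above 98.2% and Bcl2 above 7.58% in NC. In SFRP2, the order differed only in that Mcl1 stood ahead of Bcl2l1, and the libraries of these genes overlapped there too. In RAB6A, Mcl1 came first (152 FPKM), followed by Bcl2l1 (106), Bcl2a1d (100.4), Bak1 (74.8), Pmaip1 (53.9) and Bax (47.6). Bak1 thus stood behind Mcl1, Bcl2l1 and Bcl2a1d in RAB6A, and Pmaip1 had passed Bid and stood beside Bax, with libraries that overlapped those of Bax. The place of Bcl2a1d takes the split of reads between near-identical copies, described below, as given. Summed, these copies reached 163 FPKM in NC (Bak1 161), 157 in SFRP2 (Bak1 167) and 116 in RAB6A (Bak1 74.8).

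**Figure D1:**
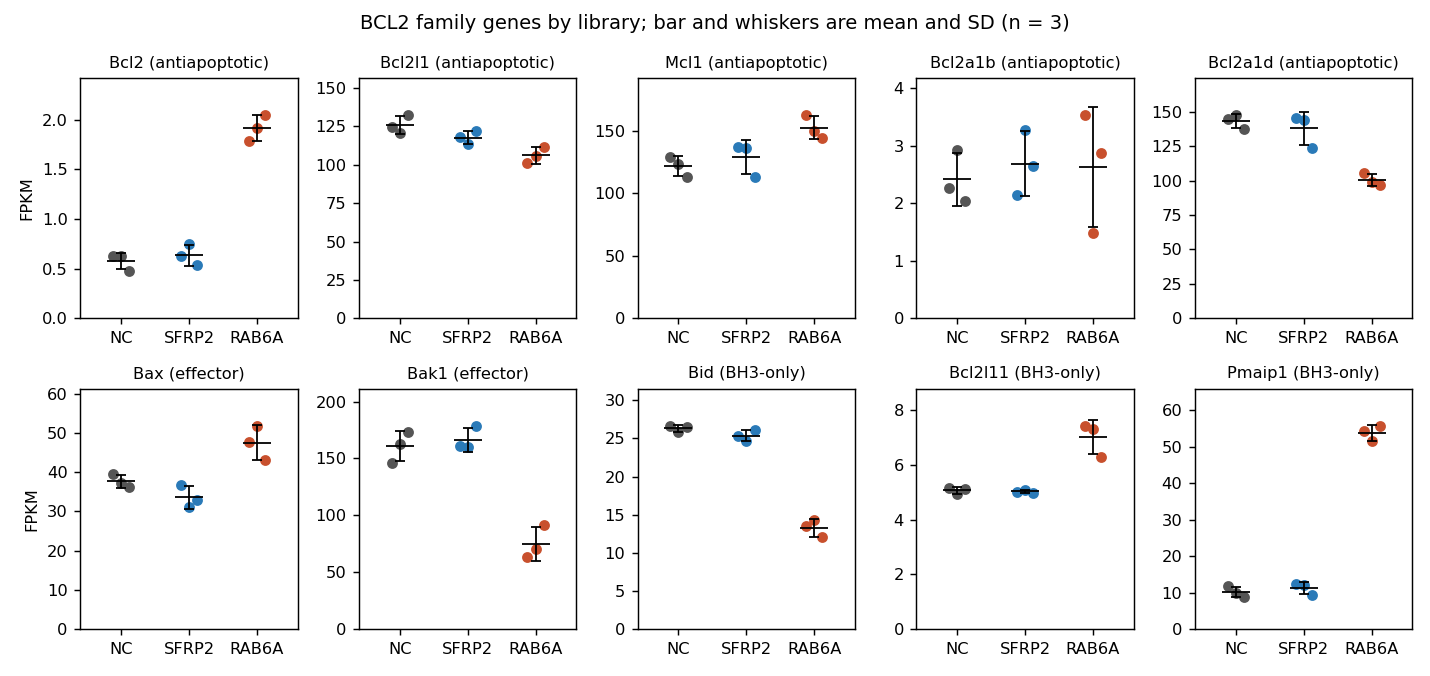
FPKM of the 10 genes (vertical axes, each from 0) in the 9 libraries (points), by siRNA group, with the mean and SD (n = 3). The RAB6A points of Bcl2, Mcl1, Bax, Bcl2l11 and Pmaip1 lie above all NC points and those of Bcl2l1, Bcl2a1d, Bak1 and Bid below, while Bcl2a1b overlaps. The direction of Bax holds for these values and turns when GC content and exon length are corrected for.

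The members Bcl2a1b (ENSMUSG00000089929) and Bcl2a1d (ENSMUSG00000099974) are near-identical copies on chromosome 9, together with Bcl2a1a. Their coding sequences of 516 bases were compared in GENCODE M21 on GRCm38. Bcl2a1b and Bcl2a1d differed at 6 bases (98.8% identity), Bcl2a1a and Bcl2a1d at 7, and Bcl2a1a and Bcl2a1b at 11. The first 120 coding bases are shown because 7 of the 12 positions that differ between the 3 copies lie there. Capitals mark these positions, and each stretch lies in one exon, at chr9:88957051-88957170 (+ strand), chr9:89199360-89199479 (+ strand) and chr9:88731600-88731719 (- strand) in the order printed.
Bcl2a1a: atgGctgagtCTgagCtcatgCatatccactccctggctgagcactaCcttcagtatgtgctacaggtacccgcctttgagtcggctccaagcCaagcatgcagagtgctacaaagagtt
Bcl2a1b: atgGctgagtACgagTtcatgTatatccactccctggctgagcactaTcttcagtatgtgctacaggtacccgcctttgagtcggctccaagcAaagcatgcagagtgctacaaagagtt
Bcl2a1d: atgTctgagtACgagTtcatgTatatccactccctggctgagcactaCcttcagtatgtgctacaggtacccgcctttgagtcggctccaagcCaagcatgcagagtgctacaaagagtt

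At least 2 of the copies share runs with no difference, in places of 150 bases or more. A read that lies wholly within such a run cannot be given to 1 copy. Of all 100-base windows of the Bcl2a1d transcript, 54.7% occurred in another of the 3 copies, and for Bcl2a1b the share was 31.1%. With 150-base windows these shares were 30.3% and 14.2%, and the read length is not known. The Bcl2a1b exons also share 401 bases (49.1%) with the gene Gm29094 on the same strand. Gm29094 held 42.2% of the 100-base windows of Bcl2a1b and is not among the deposited identifiers. The split of reads between the copies is therefore uncertain, and the 3 copies were also summed.

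Bcl2a1d encodes an A1 protein, an antiapoptotic member typical of blood cells. It measured 145, 148 and 138 FPKM in NC, 145, 144 and 124 in SFRP2, and 105, 99.1 and 97.0 in RAB6A. All RAB6A libraries lay below the NC and SFRP2 libraries, which overlapped each other. Bcl2a1d fell in RAB6A against NC, with a log2 fold change of -0.51 (SE 0.06, limma adjusted p = 0.00013), and the value was -0.99 once each library was corrected for the GC content and exon length of its genes. Bcl2a1b, the copy with few reads (46-113 per library), measured 2.27, 2.93 and 2.04 FPKM in NC, 2.14, 3.27 and 2.64 in SFRP2, and 3.54, 1.49 and 2.88 in RAB6A. Its RAB6A libraries spread across the range of both other groups, with a CV of 39.7%, and its difference from NC of 0.05 (95% interval -0.64 to 0.75) did not pass. Summed over Bcl2a1a, Bcl2a1b and Bcl2a1d, the level was 163 ± 5.57 FPKM in NC, 157 ± 13.1 in SFRP2 and 116 ± 4.86 in RAB6A (SD, n = 3). This sum, an alternative chosen after seeing the data, fell by 0.49 on the log2 scale in RAB6A against NC (SE 0.06, limma adjusted p = 0.000162).

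Bcl2, the founding antiapoptotic gene of the family (ENSMUSG00000057329, chromosome 1, 106538178-106714274), was the member of lowest mean level in all 3 groups. In RAB6A its libraries overlapped those of Bcl2a1b. It measured 0.625, 0.623 and 0.478 FPKM in NC, 0.627, 0.744 and 0.531 in SFRP2, and 1.78, 1.92 and 2.05 in RAB6A, from 186-269 reads per NC library and 594-664 per RAB6A library. The lowest RAB6A library was above the highest library of the other groups. Bcl2 rose in RAB6A against NC with a log2 fold change of 1.58 (SE 0.16, limma adjusted p = 6.23e-05), or 3.00-fold on this scale. Since the level was low, the log2 fold change moved to 0.89 with a pseudocount of 1 instead of 0.1. Even so, Bcl2 made up 0.146% ± 0.0189 of the summed FPKM of the 5 antiapoptotic genes in NC and 0.528% ± 0.0477 in RAB6A.

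Bcl2l1 (ENSMUSG00000007659, chromosome 2, 152780668-152831728) encodes BCL-XL, which holds BAX and BAK1 in check. It measured 125, 121 and 132 FPKM in NC, 118, 113 and 122 in SFRP2, and 101, 106 and 112 in RAB6A. The RAB6A libraries were below all others, and the NC and SFRP2 libraries overlapped. Bcl2l1 fell by 0.25 on the log2 scale in RAB6A against NC (SE 0.06, limma adjusted p = 0.00844).

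Mcl1 (ENSMUSG00000038612, chromosome 3, 95658788-95663176) encodes an antiapoptotic protein of short half-life. It measured 129, 123 and 113 FPKM in NC, 137, 136 and 113 in SFRP2, and 162, 149.9 and 144 in RAB6A. All RAB6A libraries were above the libraries of the other groups. Mcl1 rose in RAB6A against NC with a log2 fold change of 0.32 (SE 0.07, limma adjusted p = 0.00496). Under quantile normalization the value was 0.18 and did not pass (limma adjusted p = 0.0689), and after the correction for GC content and length it was 0.52.

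The 5 antiapoptotic genes summed to 394 ± 8.02 FPKM in NC, 388 ± 22.4 in SFRP2 and 363 ± 9.22 in RAB6A (SD, n = 3). The RAB6A sums (358-374 FPKM) were below the NC sums (386-402) and overlapped the SFRP2 sums (362-403). Within the sum, the leading transcript differed between NC and RAB6A. Mcl1 accounted for 30.9% ± 1.43 in NC, 33.1% ± 1.69 in SFRP2 and 41.9% ± 1.56 in RAB6A. Bcl2a1d accounted for 36.4% ± 0.876, 35.5% ± 1.11 and 27.6% ± 0.522 in the same order, and Bcl2l1 for 32.0% ± 2.04, 30.5% ± 2.80 and 29.2% ± 2.11. Bcl2a1d was thus the leading transcript of the sum in each NC library and Mcl1 in each RAB6A library.

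**Figure D2:**
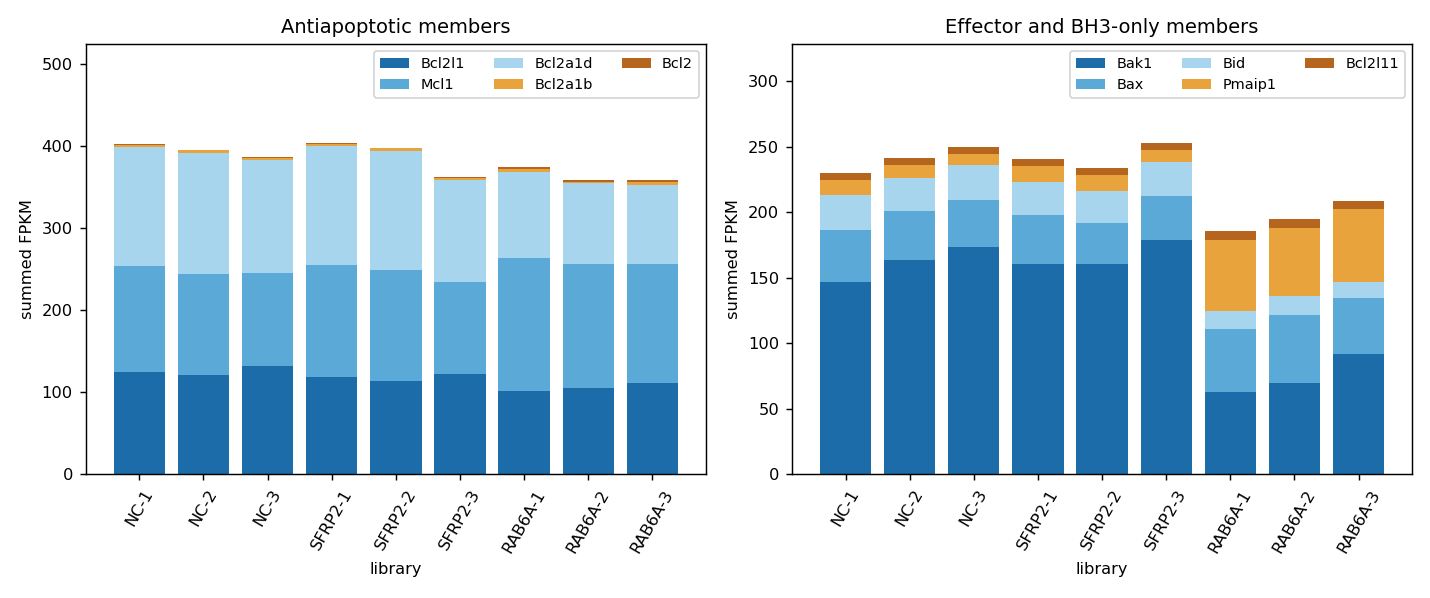
Stacked bars of summed FPKM (vertical axis, from 0) for the antiapoptotic genes (left) and for the effector and BH3-only genes (right) in each of the 9 libraries. On the right, the Bak1 segment is shorter in the 3 RAB6A libraries and the Pmaip1 segment taller than in the other 6. On the left, the sums lie between 358 and 403 FPKM in all libraries.

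Bak1 (ENSMUSG00000057789, chromosome 17, 27019810-27029009), an effector that sits in the mitochondrial membrane, measured 146, 163 and 173 FPKM in NC, 161, 160.4 and 179 in SFRP2, and 62.9, 69.9 and 91.5 in RAB6A. Its RAB6A libraries were far below the others, and replicate 3 was the highest of them. Bak1 fell by 1.12 on the log2 scale in RAB6A against NC (SE 0.14, limma adjusted p = 0.000197), a 2.17-fold lower level and the only decrease of a member that passed 1 on this scale. Bax (ENSMUSG00000003873, chromosome 7, 45461697-45466898), the effector that moves from the cytosol to mitochondria, measured 39.5, 37.4 and 36.2 FPKM in NC, 36.8, 31.0 and 33.1 in SFRP2, and 47.8, 51.9 and 43.1 in RAB6A. All RAB6A libraries were above the other 6. Bax was higher in RAB6A than in NC by 0.33 (SE 0.08, limma adjusted p = 0.00581) on FPKM as deposited, but lower, by -0.14 (limma adjusted p = 0.0418), after the correction for GC content and length. The longest Bax transcript holds 63.5% GC, the highest share among the 10 members, which ranged from 42.1% (Pmaip1). Bax exons share 192 bases (12.2%) with Gm45808 on the same strand, a gene that is not among the deposited identifiers. Bak1 exons share up to 437 bases (18.2%) with Ggnbp1 on the opposite strand, which had a mean of at most 0.242 FPKM. The part of these overlaps in the values was not tested.

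The effectors changed in opposite directions in RAB6A against NC on FPKM as deposited, which brought their levels closer together. Their ratio, a planned description, was taken in each library. Bak1 exceeded Bax 3.71-, 4.37- and 4.78-fold in NC, 4.36-, 5.17- and 5.41-fold in SFRP2, and 1.32-, 1.35- and 2.12-fold in RAB6A. Bax plus Bak1 summed to 199 ± 11.7 FPKM in NC, 200.3 ± 10.5 in SFRP2 and 122 ± 11.9 in RAB6A.

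Bid (ENSMUSG00000004446, chromosome 6, 120891930-120916853) links death receptors to mitochondria after cleavage by caspase-8. It measured 26.7, 25.9 and 26.5 FPKM in NC, 25.3, 24.6 and 26.1 in SFRP2, and 13.5, 14.3 and 12.0 in RAB6A. The NC libraries spread by a CV of only 1.65%, and the RAB6A libraries were at about 0.50 of their level. Bid fell by 0.99 on the log2 scale in RAB6A against NC (SE 0.07, limma adjusted p = 1.50e-05). Its exons share 628 bases (17.7%) with Bcl2l13 on the opposite strand, and counting by strand is not stated. Bcl2l13 had a mean of 4.76 FPKM and a log2 fold change of -0.12 (limma adjusted p = 0.276), and its part in the Bid values was not tested.

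Bcl2l11 (ENSMUSG00000027381, chromosome 2, 128126038-128162547) encodes BIM, which binds all antiapoptotic members and can activate BAX and BAK1. It measured 5.16, 4.93 and 5.14 FPKM in NC, 5.01, 5.10 and 4.99 in SFRP2, and 7.44, 7.32 and 6.30 in RAB6A. The 6 libraries of NC and SFRP2 lay close together, and all RAB6A libraries were above them. Bcl2l11 rose in RAB6A against NC with a log2 fold change of 0.46 (SE 0.08, limma adjusted p = 0.00144).

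Pmaip1 (ENSMUSG00000024521, chromosome 18, 66458533-66465565), which encodes NOXA, a p53 target that opposes MCL1, showed the largest change of the 10 genes. It measured 11.7, 9.95 and 8.71 FPKM in NC, 12.4, 12.1 and 9.44 in SFRP2, and 54.3, 51.6 and 55.8 in RAB6A, with 4995-5389 reads per RAB6A library. The RAB6A libraries lay far above the other 6, whose highest value was 12.4 FPKM. Pmaip1 rose in RAB6A against NC with a log2 fold change of 2.41 (SE 0.10, limma adjusted p = 1.97e-06), or 5.32-fold, and was between 2.31 and 2.52 under all 18 alternatives tried.

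The 3 BH3-only genes summed to 41.5 ± 1.72 FPKM in NC, 41.7 ± 1.07 in SFRP2 and 74.2 ± 1.01 in RAB6A. Bid made up 63.5% ± 2.18 of this sum in NC and 17.9% ± 1.66 in RAB6A, and Pmaip1 made up 24.3% ± 2.62 and 72.6% ± 2.45. Among these 3 genes, Bid was the leading transcript in all NC and SFRP2 libraries and Pmaip1 in all RAB6A libraries. Bbc3, a BH3-only gene that is not among the 10 members, measured 80.6, 72.3 and 55.9 FPKM in RAB6A. It was thus above Pmaip1 in each RAB6A library, narrowly so in replicate 3. The ratio of Mcl1 to Pmaip1, chosen after the values were seen, was 11.1, 12.4 and 13.0 in NC, 11.1, 11.2 and 11.9 in SFRP2, and 2.99, 2.91 and 2.58 in RAB6A.

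Between RAB6A and NC, 9 of the 10 members passed an adjusted p of 0.05 with limma, beside 74.1% of the 12712 genes tested, so that the share of members was near that of all genes. Of these members, 5 were higher (beside 37.6% of all genes) and 4 lower (36.5%), where Bax counts as higher on FPKM as deposited only and turns lower after the correction for GC content and length. DEGs, which also exceed 1 on the absolute log2 scale, numbered 3 of 10, beside 30.1% of all genes. They were Bcl2 and Pmaip1 among the higher (beside 17.3%) and Bak1 among the lower (beside 12.8%). Which members were DEGs depended on the setting, since Bcl2 was at 0.89 with a pseudocount of 1, and Bid, at -0.99, reached -1.03 with median-of-ratios scaling and -1.04 without RAB6A replicate 2. In 9 of 10 members the groups did not overlap, beside 77.4% of all genes. The median log2 fold change was 0.19 over the members and 0.03 over all genes tested. Each single member that did not overlap had an exact two-sided permutation p of 0.1, the smallest that 3 libraries against 3 allow.

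**Figure D3:**
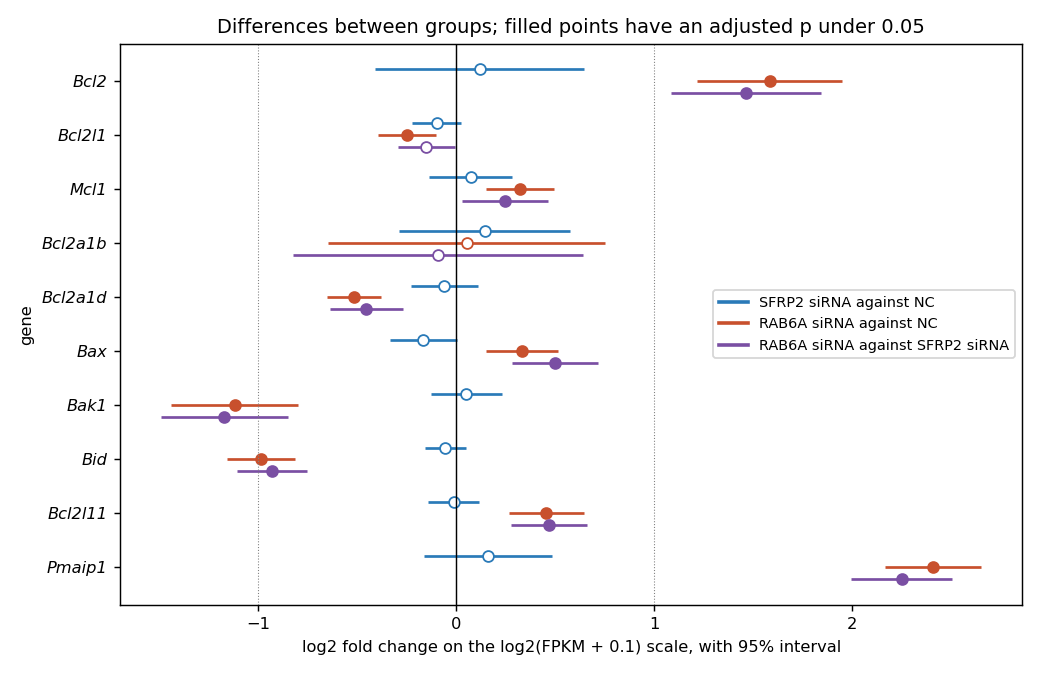
Log2 fold changes (horizontal axis, log2(FPKM + 0.1) scale) of the 10 genes in 3 comparisons, with 95% intervals from limma. Filled points have an adjusted p under 0.05. All 10 SFRP2 against NC points are open and their intervals include 0, while the intervals of both RAB6A comparisons exclude 0 for all members but Bcl2a1b. Bcl2l1 is open in RAB6A against SFRP2, and Bax turns under the correction for GC content and length.

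Between SFRP2 and NC, none of the 10 members passed, and the libraries of all 10 overlapped. With limma, 0 of 12017 genes passed an adjusted p of 0.05 (percent called 0), 18.5% of all genes and none of the members had an unadjusted p under 0.05, and with voom on the recovered reads 41 genes passed, again with no member. Libraries did not overlap for 24.7% of all genes. The log2 differences of the members lay between -0.17 (Bax) and 0.16 (Pmaip1), with a median of 0.02 beside -0.01 over all genes.

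These values do not show that the members were equal in SFRP2 and NC, and the intervals give the room left. For Bid the 95% interval ran from -0.16 to 0.05, for Bcl2l11 from -0.14 to 0.12, for Bcl2l1 from -0.22 to 0.03 and for Bcl2a1d from -0.23 to 0.11. Those of Bak1 (-0.13 to 0.23) and Mcl1 (-0.14 to 0.28) were wider. The intervals were wider again for Pmaip1 (-0.16 to 0.48), Bcl2a1b (-0.29 to 0.58) and Bcl2 (-0.41 to 0.65). Bax came nearest to the threshold, with a difference of -0.17 (limma unadjusted p = 0.0532, adjusted p = 0.277) that was -0.01 after the correction for GC content and length. Over the 11903 genes with a GC value, Spearman's rho between the log2 difference and GC content was -0.48, a description across genes that share these 6 libraries.

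Both siRNA comparisons share the NC libraries, so the responses were compared directly between RAB6A and SFRP2. With limma, 8 of 10 members passed, beside 73.4% of 12764 genes tested, and 9 of 10 did not overlap, beside 77% of all genes. The 5 higher members stood beside 37.6% of all genes and the 3 lower beside 35.8%. DEGs were again Bcl2 and Pmaip1 (higher, beside 17.8%) and Bak1 (lower, beside 13.3%), or 3 of 10 beside 31.1% in both directions, and Bcl2 was at 0.84 with a pseudocount of 1. Pmaip1 (2.25), Bcl2 (1.47), Bax (0.50), Bcl2l11 (0.47) and Mcl1 (0.25) were higher in RAB6A on the log2 scale, with Bax at -0.13 after the correction for GC content and length. Bak1 (-1.17), Bid (-0.93) and Bcl2a1d (-0.45, and -0.84 after this correction) were lower. Bcl2l1 (-0.15, limma adjusted p = 0.0575) and Bcl2a1b (-0.09, limma adjusted p = 0.802) did not pass. Mcl1 passed narrowly (limma adjusted p = 0.0433) and lost the call under 8 of 18 alternatives. Its value was lowest under quantile normalization (0.02, limma adjusted p = 0.856), and it was 0.16-0.29 without SFRP2 replicate 2 or 3 or RAB6A replicate 1 or 2, with a limma adjusted p of up to 0.128.

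The other genes of the pathway were described by lists, with the RAB6A against NC comparison first. Each count stands beside 74.1% of all genes passed (37.6% higher, 36.5% lower) and an all-gene median of 0.03, and the lists were chosen with earlier results of these data known. Of 16 further BCL2 family genes, 9 were expressed enough to be tested, 6 passed, a share near that of all genes, and 5 of these were higher, with a median log2 fold change of 0.49. Bbc3, which encodes the BH3-only protein PUMA, measured 8.69, 8.02 and 7.86 FPKM in NC and 80.6, 72.3 and 55.9 in RAB6A, a log2 fold change of 3.06 (SE 0.13, limma adjusted p = 1.86e-06). The NC and RAB6A libraries of Bbc3 lay far apart. Bnip3l, a mitophagy receptor of the outer mitochondrial membrane, rose by 1.43, and Bcl2a1a alone was lower (-0.40).

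Downstream of the mitochondria, 9 of 13 apoptosome and caspase genes passed, near the 74.1% of all genes, 5 higher and 4 lower, with a median of 0.09. Diablo, whose protein blocks inhibitors of apoptosis (1.36), and the executioner caspase gene Casp6 (1.31) were the highest, while Casp9, the initiator of the apoptosome (-1.002), and Dffa, the inhibitor of the apoptotic DNase (-0.87), were the lowest. Of 4 inhibitor of apoptosis genes, Birc2 was higher (1.01), Birc6 (-0.52) and Birc3 (-0.44) were lower, and Xiap did not pass. Among 7 mitochondrial partners and MCL1 turnover genes, 3 passed, a smaller share than the 74.1% of all genes, and these were lower. They were the ubiquitin ligase genes Huwe1 (-1.08) and Fbxw7 (-0.91), whose products mark MCL1 for degradation, and Vdac2 (-0.46), whose product is a partner of BAK1 in the outer membrane.

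Upstream, 6 of 8 genes of the death receptor route to Bid passed, 3 in each direction, as near the shares of all genes (74.1% passed, 37.6% higher and 36.5% lower) as 8 genes allow. The adaptor genes Ripk1 (-1.95) and Fadd (-1.88) were lower, and the receptor gene Tnfrsf10b (0.88) and Cflar (0.39), an inhibitor of caspase-8, were higher. Of p53 and its targets, 9 of 10 were tested and 8 passed, 6 of them higher (beside 37.6% of all genes), with a median of 1.13 beside 0.03 over all genes. Trp53inp1 (4.31) and Mdm2 (1.72) rose, while the p53 gene Trp53 itself (-1.004) and Sesn2 (-0.25) were lower. Mdm2 measured 71.0, 64.6 and 67.5 FPKM in NC and 214, 209.9 and 246 in RAB6A.

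The 11 transcription factors known to act on members divided into 5 higher (beside 37.6% of all genes), 5 lower (beside 36.5%) and Atf4, which did not pass. Ddit3, which encodes the stress factor CHOP (1.99), and Foxo3, a forkhead factor known to act on Bcl2l11 (0.92), were the highest. Myc (-3.90) and Irf1 (-1.09) were the lowest. In SFRP2 against NC, 0 of the 60 tested genes of these 7 lists passed with limma, 12 had an unadjusted p under 0.05 (beside 18.5% of all genes), and voom on the recovered reads passed 0 of 58. None of these 12 was in the further family or death receptor lists. By the rule for named genes, the smallest unadjusted p of each list belonged to Irf1 (-0.31), Phlda3 (-0.37), Usp9x (0.19), Endog (-0.93), Xiap (0.17), Bad (-0.19) and Fas (-0.16), with limma adjusted p-values between 0.163 and 0.379.

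**Figure D4:**
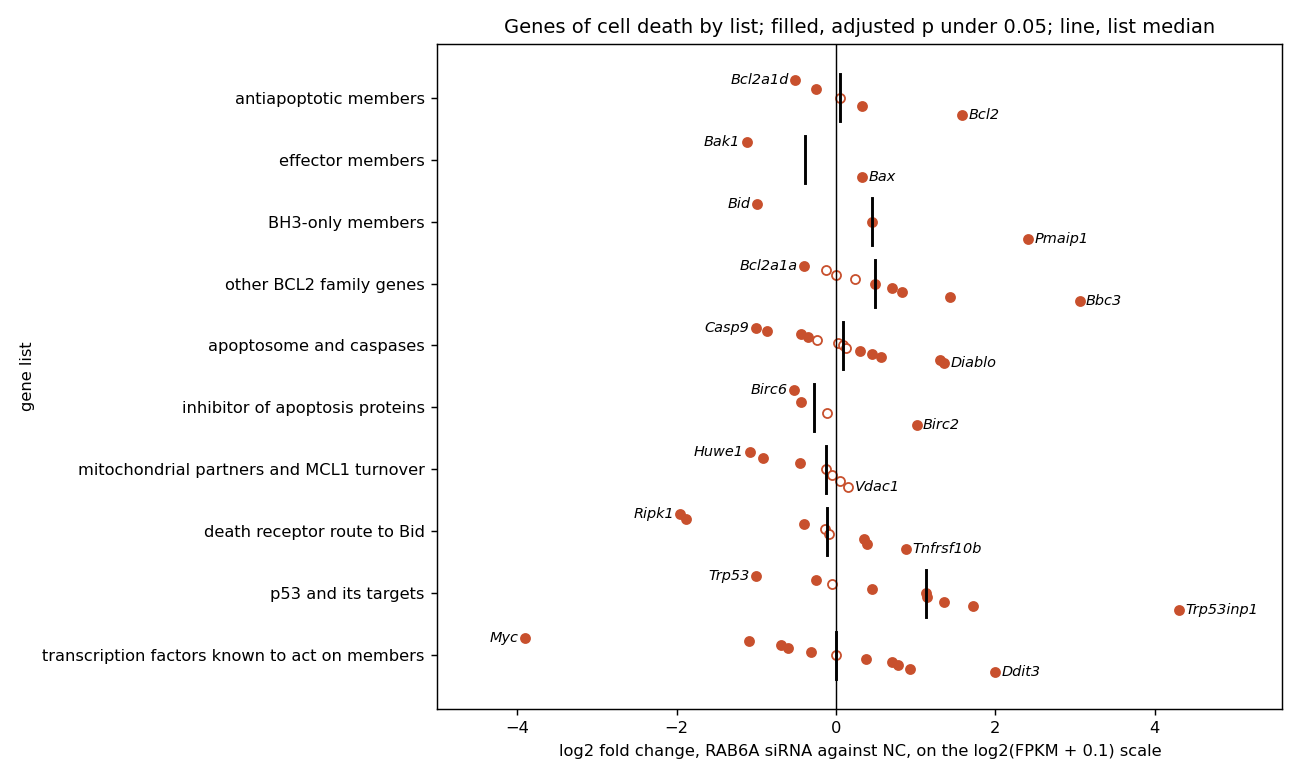
Log2 fold changes of RAB6A against NC (horizontal axis) for the members and 7 further lists of cell death genes (rows), with filled points for an adjusted p under 0.05, open points for the others and a black line at each list's median. The median of the p53 list lies at 1.13 and that of the other lists between -0.39 and 0.49. Bax among the effectors turns lower under the correction for GC content and length.

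Sequence before the start sites was examined in the RefSeq promoter windows of GRCm38.p6 (250 bases before to 50 after the start). They held 12 windows for 9 of the 10 members and none for Pmaip1, whose promoter was therefore not searched. Bax and Bcl2l11 are shown because their windows held matches to motifs of p53, MYC and the forkhead factors, whose transcripts are described above. Capitals in the Bax stretch (chr7:45466899-45467148, - strand) mark a p53 half-site and an E-box (CACGTG), and those in the Bcl2l11 stretch (chr2:128125788-128125907, + strand) mark the forkhead motif GTAAACA. Neither stretch overlaps an annotated exon.
Bax: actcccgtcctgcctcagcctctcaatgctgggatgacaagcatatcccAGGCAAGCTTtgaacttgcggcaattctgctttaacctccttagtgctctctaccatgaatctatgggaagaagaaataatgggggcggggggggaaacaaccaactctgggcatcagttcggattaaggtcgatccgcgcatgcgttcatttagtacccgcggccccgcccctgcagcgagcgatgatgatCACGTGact
Bcl2l11: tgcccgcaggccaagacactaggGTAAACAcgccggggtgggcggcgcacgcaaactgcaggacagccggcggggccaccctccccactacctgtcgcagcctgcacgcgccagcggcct

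On both strands, CACGTG occurred in 7.15% of the 32851 mouse promoter windows, the p53 half-site in 8.36% and GTAAACA in 3.65%. Bax held CACGTG at -9 and at 36 from the start site, and the half-site at -201. Bcl2l11 held the forkhead motif at -227. A kappaB site was found in a window of Bcl2l1 at -242, a motif of 4.51% of all windows. TGATGNAAT, a C/EBP-ATF motif of 0.96% of windows, and TTTGGCGC, an E2F motif of 0.51%, were not found in the members' windows, which leave out Pmaip1. A match describes the letters and not a bound site.

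For each member, the gene with the most similar pattern over the 9 libraries was taken from 12369 genes, as a description of libraries that fall into the same 3 groups. Pearson's r of log2(FPKM + 0.1) was 0.998 between Bcl2 and Bnip3l, 0.998 between Bak1 and Smpd4, 0.999 between Bid and St3gal1, and 0.999 between Pmaip1 and Kdm7a. It was 0.994 between Bcl2l11 and Tinf2, 0.992 between Bax and Adprhl2, and 0.991 between Bcl2a1d and 2010315B03Rik. Mcl1 was most like Gm45094 (0.988), Bcl2l1 most like Ighm (0.983) and Bcl2a1b most like Man1c1 (0.880). Gm45094 had only 6-68 reads per library. For Bid, 2054 genes had an r over 0.95, for Bcl2l1 and Mcl1 there were 23 and 24, and for Bcl2a1b 0. The patterns of the last 3 were thus shared by fewer genes than that of Bid.

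The differences of RAB6A against NC were also recomputed under 18 alternatives, among them other pseudocounts, filters and scalings and each library left out. Bcl2l1, Bcl2a1d, Bak1 and Bid stayed lower, and Bcl2, Bcl2l11 and Pmaip1 higher, past the threshold under all of them. Mcl1 lost the call under quantile normalization, and Bax turned under the correction for GC content and length.

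**Figure D5:**
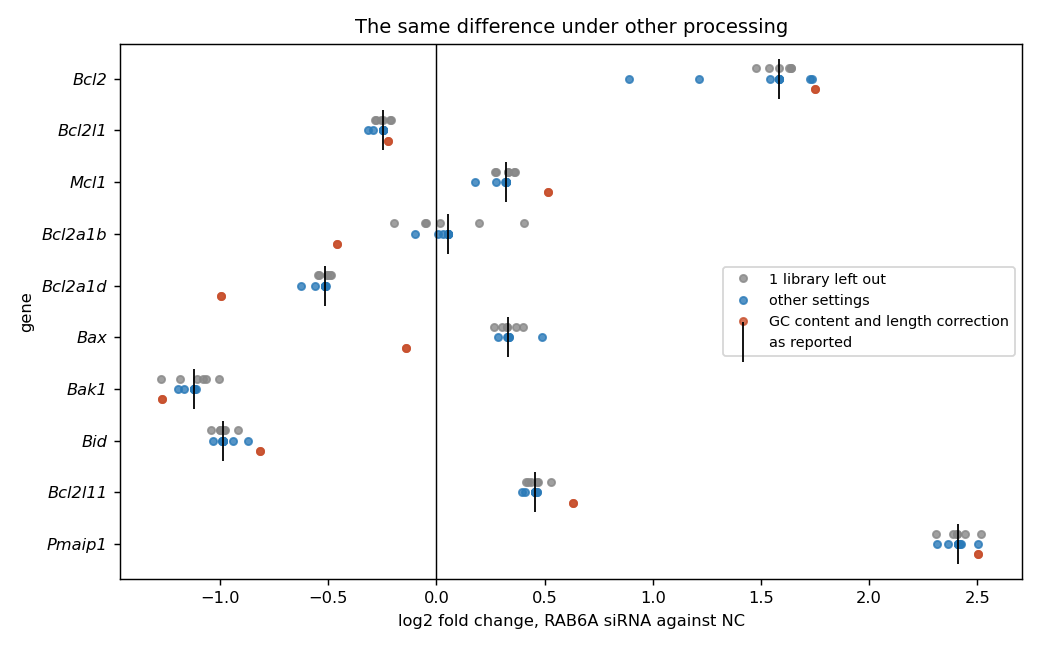
Log2 fold changes of RAB6A against NC (horizontal axis) for the 10 genes as reported here (vertical ticks), with 1 library left out (grey), under other settings (blue) and with the correction for GC content and length (red). The points of Bax with this correction (-0.14) and several points of Bcl2a1b lie on the other side of 0, and Bcl2 moves to 0.89 with a pseudocount of 1.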

How the data were processed

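The values deposited by the authors for these RAW264.7 cells are FPKM for each Ensembl identifier in each library, without gene names. The submitters' processing notes name HISAT2 and featureCounts of Subread without versions or roles. The genome build, the annotation, the read length and counting by strand are not given in the sources used here. Of 28137 identifiers, 27533 were named from GENCODE M21 (GRCm38) and 604 were not. The members and lists were chosen with earlier results of these data known.

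For 27083 genes (98.4% of those named), FPKM times exon length came to whole reads within 0.03 in all libraries. The steps gave the library sizes, and these reads gave the alternative with voom. Read numbers carry counting error only, and reads of a pair may be counted singly. Of the low read numbers, 66.8-72.1% per library were even, so that fragments may be fewer than the reads given. How pairs were counted was not tested.

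Each comparison of 3 libraries against 3 was fitted with limma 3.58.1 (R 4.3.3) on log2(FPKM + 0.1), for genes with a mean of at least 0.5 FPKM, with Benjamini-Hochberg adjustment over all genes tested. These fits used FPKM rather than the recovered reads. DEGs were genes past an adjusted p of 0.05 whose log2 fold change also exceeded 1 in size. The fit was tested on simulated data. Single members were compared by exact two-sided permutation tests (scipy 1.17.1). Named genes are the 10 members, from each other list the 2 highest and 2 lowest passing genes per comparison with NC (or the smallest unadjusted p), the targeted genes, and 1 gene most like each member.

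Alternatives were pseudocounts of 1 and 0.01, no filter, a mean of at least 1 FPKM, quantile normalization, median-of-ratios scaling, a fit of all 9 libraries together, eBayes without trend, a replicate block, a correction for GC content and exon length by splines (5 degrees of freedom) with and without the block, voom, and each library left out. Summing the 3 Bcl2a1 copies was added after seeing the data. No deposited column was left out.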

Additional observations from a re-analysis of the deposited data

How the results depend on the processing

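The number of members past the threshold in RAB6A against NC was 8-9 under all alternatives and 9 with each library left out. In RAB6A against SFRP2 it was 7-9, and 7-9 with libraries left out. In SFRP2 against NC it was 0 throughout. In RAB6A against NC, the log2 fold change of Bax was -0.14 with the correction for GC content and length (limma adjusted p = 0.0418; 0.0709 together with the replicate block), and in RAB6A against SFRP2 it was -0.13 (limma adjusted p = 0.0804; 0.130 with the block). The cause was not tested. Bcl2a1b changed sign in RAB6A against NC to -0.10 under quantile normalization, -0.46 with the correction for GC content and length (with and without the block), -0.05 without NC replicate 3, -0.19 without RAB6A replicate 1, -0.05 without RAB6A replicate 3 (0.40 without RAB6A replicate 2) and -0.49 with the copies summed. In RAB6A against SFRP2, Bcl2a1b was 0.06 without SFRP2 replicate 2 and 0.26 without RAB6A replicate 2, and -0.34 without RAB6A replicate 1. In SFRP2 against NC, where no member passed, signs changed for Bcl2l1 (0.0038) and Bid (0.0085) with the correction for GC content and length, Bak1 without NC replicate 1 (-0.014; 0.11 without NC replicate 3), Bcl2a1d without SFRP2 replicate 3 (0.015), and Bcl2a1b without SFRP2 replicate 2 (-0.0042) and with the copies summed (-0.060). In RAB6A against SFRP2, Mcl1 did not pass under 8 alternatives, with values from 0.02 (quantile normalization) to 0.29 (without SFRP2 replicate 2), and Bcl2l1 passed under 6, down to -0.27.

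The labels number the libraries 1 to 3 in each group without saying what a number shares. Deviations of same-numbered libraries correlated between -0.08 and 0.05, so the numbers were not taken as pairs. With the replicate block, 9, 8 and 0 members passed in RAB6A against NC, RAB6A against SFRP2 and SFRP2 against NC, and the count over all genes in RAB6A against NC was 9103 instead of 9418. The low read numbers of Bcl2a1b (46-113) and Bcl2 (169-664) limit the precision of both.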
